A study of Mus musculus with 16 samples.

Results

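To examine how interferon-stimulated genes behave at the start of osteoclast differentiation under BRD9 inhibition, 47 genes that type I interferon induces were followed in RNA sequencing of mouse bone marrow-derived monocytes (BMDMs). The 47 genes were taken by name as interferon-stimulated genes outside the OAS, IFIT, Ifi200, Schlafen, Ly6, GBP, IRF and STAT families. The Ifi27 family, set apart as running opposite to other interferon genes, was not among them either. The list was drawn up with earlier results of these data known. Counts of members by direction therefore describe the list and are no independent test. Each was listed once among the 21898 genes of the count table, and all 47 passed the filter on low counts, which kept 11559 genes. BMDMs were cultured for 1 day with M-CSF, a growth factor on which macrophages and their precursors depend, at 50 ng/ml in every group. RANKL, the cytokine that starts osteoclast formation, was added at 100 ng/ml to the groups named MR and not to those named M. Cells received either vector or iBRD9, a compound that selectively blocks the bromodomain of BRD9, which belongs to the non-canonical BAF chromatin remodelling complex. Libraries fell into M + vector and M + iBRD9 without RANKL, and MR + vector and MR + iBRD9 with it. Each had 4 libraries, and the labels give no genetic change in any of them. The labels number the replicates without naming separate cultures or animals. The p-values therefore reflect the spread between these libraries only, which may be technical.

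Type I interferons bind a receptor of the subunits IFNAR1 and IFNAR2, whose kinases JAK1 and TYK2 activate STAT proteins. Together with IRF9 these form a complex that enters the nucleus and binds the interferon-stimulated response element in the promoters of target genes. The products of these genes sense foreign RNA and DNA, modify proteins with the ubiquitin-like ISG15, and block steps of viral growth. Macrophages keep such genes at a basal level, and interferon is known to restrain osteoclast formation.

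Libraries held 15372775 to 18987926 counts, and mitochondrial genes took 1.70% to 1.94% of them. Every level below is a count scaled to library size with TMM factors (CPM), unless it is given as FPKM, which also divides by gene length. Changes are log2 estimates ± SE from 1 edgeR fit of all 16 libraries, and calls were made below a threshold of 0.05 on the p adjusted by Benjamini and Hochberg's method over all 11559 genes. Libraries are named by their replicate number, and were left out 1 at a time to see which calls held. Macrophage markers summed to 22400 to 26700 CPM in the 16 libraries. Osteoclast markers summed to 173 to 197 CPM without RANKL and 720 to 872 CPM with it. That rise was carried by Mmp9, which went from 73.1 ± 5.25 to 666 ± 26.1 CPM with vector (SD, n = 4). Of the 7 osteoclast markers tested 4 rose with RANKL and vector and 2, Atp6v0d2 and Itgb3, fell, so the list did not move as a whole. Markers of B cells, dendritic cells, mast cells and plasmacytoid dendritic cells summed to at most 2.47 CPM each, those of T and NK cells to at most 5.08 CPM, and those of stromal and endothelial cells to at most 19.5 CPM. Fewer cells of a type and less RNA per cell cannot be told apart in such bulk libraries.

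The response element is the sequence through which interferon acts, so promoters of members that hold it are shown. Promoters of 300 bases, 250 before and 50 after the start, came from RefSeq (GRCm38.p6), and 39 of the 47 members had at least 1. Coordinates are those of the exact match of each promoter in GRCm39. The core searched was GAAA, any 2 bases, GAAA, on both strands, and overlapping matches were counted separately. In the upstream windows here, the core is in capitals and each sequence runs 5′ to 3′ on the strand of the gene.
Isg15, chr4:156285292-156285393, minus strand: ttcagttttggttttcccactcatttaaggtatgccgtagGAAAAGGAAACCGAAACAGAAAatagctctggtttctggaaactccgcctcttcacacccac
Bst2, chr8:71990191-71990286, minus strand: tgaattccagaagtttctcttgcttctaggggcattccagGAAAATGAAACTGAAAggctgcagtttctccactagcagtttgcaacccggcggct
Rsad2, chr12:26506522-26506611, minus strand: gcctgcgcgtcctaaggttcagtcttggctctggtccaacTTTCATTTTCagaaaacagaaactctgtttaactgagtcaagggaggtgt
Phf11b, chr14:59578780-59578869, minus strand: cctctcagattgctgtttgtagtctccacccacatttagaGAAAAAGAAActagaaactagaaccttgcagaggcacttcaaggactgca
Ifitm2, chr7:140535875-140535960, minus strand: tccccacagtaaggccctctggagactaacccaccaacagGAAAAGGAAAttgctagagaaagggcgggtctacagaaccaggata

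The next windows are shorter, because the core lay after the start. Ddx58 is shown because it rose strongly with RANKL, Ifih1 because it encodes a sister sensor of it, Ifitm3 because it had the highest FPKM of the members, Eif2ak2 because it encodes a sensor of the same group, and Trim21 because it moved against the other members.
Ddx58, chr4:40239804-40239833, minus strand: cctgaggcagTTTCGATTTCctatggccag
Ifih1, chr2:62476550-62476579, minus strand: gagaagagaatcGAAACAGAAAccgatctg
Ifitm3, chr7:140590627-140590656, minus strand: gGAAAAGGAAActtctgaGAAACCGAAAct
Eif2ak2, chr17:79189964-79189993, minus strand: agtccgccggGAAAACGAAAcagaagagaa
Trim21, chr7:102214654-102214683, minus strand: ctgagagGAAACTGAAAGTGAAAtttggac

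The Isg15 promoter held 3 overlapping cores, the first beginning 78 bases before the start. Bst2 held 2, the first at 130 bases before the start, and Rsad2 held 1 on the opposite strand at 120 bases before it. Of the 50 promoters of members, 16 (32.0%) held the core, against 1131 of 32851 promoters in the whole table (3.4%). Counted by gene, 15 of 39 members (38.5%) had it, against 4.0% of 27025 genes. The gamma-activated site TTCNNNGAA, which STAT dimers bind, was in 12.0% of the promoters of members and 8.3% of all promoters. A match of these letters is a description, not a bound site. The members with the core were Isg15, Ddx58, Ifih1, Eif2ak2, Rsad2, Bst2, Ifitm2, Ifitm3, Tdrd7, Trim21, Trim30a, Trim34a, Parp11, Phf11b and Ogfr.

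**Figure D1:**
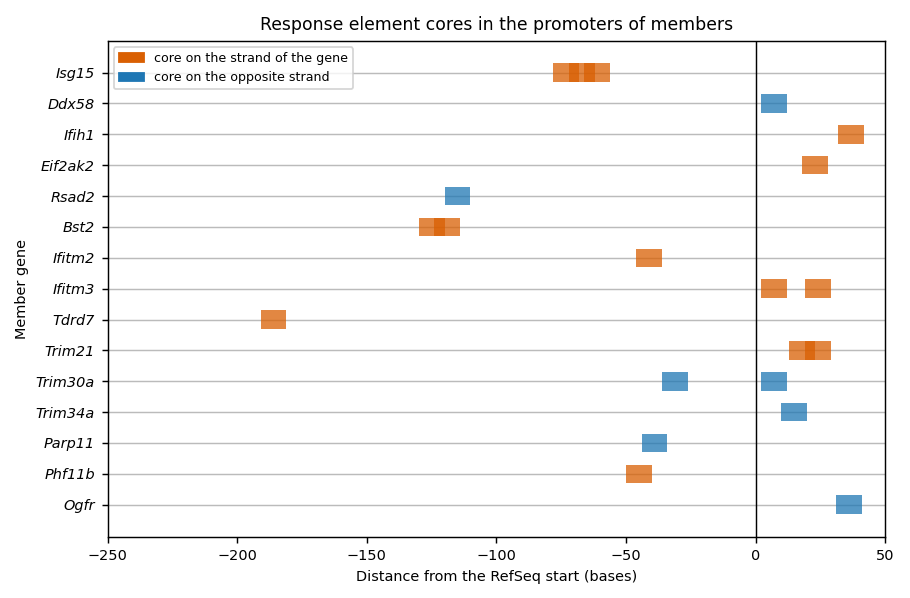
Positions of the response element cores in the promoters of the 15 members that held one, as bases from the RefSeq start on the horizontal axis, with colour for the strand. The 3 cores of Isg15 overlap each other from 78 bases before the start on, and those of Ddx58, Ifih1, Eif2ak2, Ifitm3, Trim21, Trim34a and Ogfr lie after it.

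In M-CSF and vector, without RANKL or iBRD9, the members spanned a wide range of levels. In M + vector, Ifitm3, which blocks the fusion of viruses with the cell, stood at 1010 ± 54.5 FPKM (SD, n = 4). The next were Bst2, which tethers budding viruses to the cell surface, at 286 ± 25.5 FPKM and Lgals3bp, a secreted glycoprotein, at 213 ± 10.3 FPKM. At the low end, Ifi44 stood at 1.47 ± 0.14 FPKM and Herc6, the main ISG15 ligase in mice, at 3.08 ± 0.22 FPKM. The smallest count of any member in any library was 105, for Ifitm2.

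RANKL raised most members. In vector-treated cells 39 of 47 members rose and 1 fell, with a median log2 change of 0.48 and a range of -0.15 to 1.34. Among all genes tested, 20.1% rose and 20.6% fell, and the median was -0.001. The ISG15 deconjugase gene Usp18 rose most (1.34 ± 0.09), then Isg15 itself (1.25 ± 0.08), Ifi44 (1.16 ± 0.10) and the RNA sensor gene Ddx58 (1.10 ± 0.05). For all 39 risers the 4 MR + vector libraries lay above the 4 M + vector libraries, where 18.9% of all genes were so separated. The 7 members not called were Ifitm2, Tdrd7, Trim25, Trim34a, Sp110, Sp140 and Nmi. With iBRD9 present, RANKL raised 38 members and lowered 1, with a median of 0.39. There 24.6% of all genes rose and 25.8% fell. The libraries of 36 members were separated upward and those of 1 downward, against 21.4% and 21.5% of all genes. All 38 were among the 39 that rose with vector, and the share of all genes that rose in both was not computed. The remaining member was Parp11, at 0.19 ± 0.07 with vector (adjusted p = 0.045) and 0.02 ± 0.08 with iBRD9 (adjusted p = 0.83). The Parp11 call with vector was lost on leaving out MR + vector library 2 or M + vector libraries 1, 3 or 4 (highest adjusted p 0.33).

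Some marker lists moved with RANKL too. Of all genes, 20.1% rose and 20.6% fell with vector, and 24.6% rose and 25.8% fell with iBRD9. Of 11 macrophage markers 8 fell and 1 rose with vector, and 9 fell and none rose with iBRD9. Their summed level, mostly Lyz2, was 22600 to 24200 CPM in M + vector and 24900 to 26200 CPM in MR + vector. Erythroid and megakaryocyte markers, of which Pf4 made up nearly all, summed to 200 to 231 CPM in M + vector and 105 to 121 CPM in MR + vector. Stromal and endothelial markers summed to 14.5 to 19.5 CPM in M + vector and 8.75 to 11.7 CPM in MR + vector, with 2 of 3 tested lower. Of 9 neutrophil markers 1 rose and 2 fell with vector, no more than near the background, and 1 rose and 7 fell with iBRD9. What part these shifts had in the rise of the members was not tested.

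**Figure D2:**
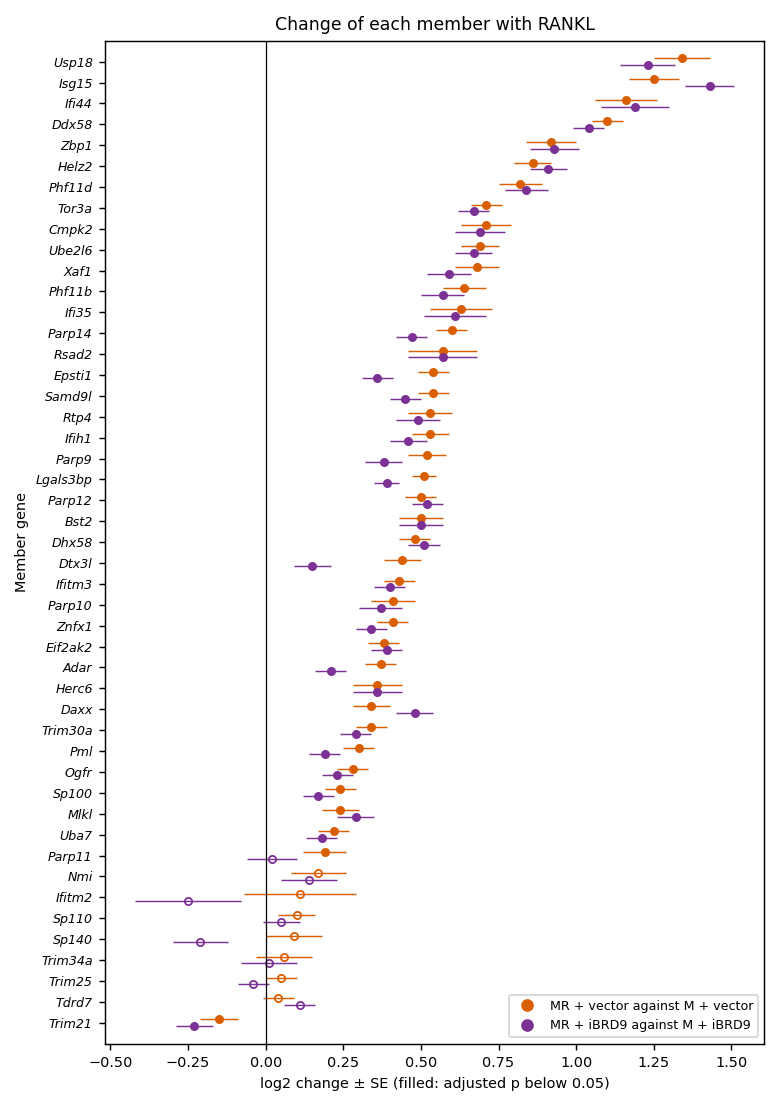
Log2 change ± SE of each of the 47 members with RANKL, in vector-treated cells and in iBRD9-treated cells, ordered by the former, with filled points for an adjusted p below 0.05. The points run from -0.15 for Trim21 to 1.34 for Usp18 with vector, and 38 members are filled on the right in both comparisons.

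The iBRD9 effect was smaller and ran downward. In RANKL-treated cells 20 of 47 members fell and none rose, with a median log2 change of -0.18 and a range of -0.41 to 0.10. Of all genes tested, 2.05% fell and 0.718% rose, with a median of 0. The largest falls were those of Phf11b (-0.41 ± 0.07, adjusted p = 0.00019), Ifi44 (-0.40 ± 0.09, adjusted p = 0.013) and Phf11d (-0.39 ± 0.07, adjusted p = 0.0006). No member rose at an unadjusted p below 0.05, against 5.36% of all genes, and 33 were lower at it, against 7.90%. Since the list was chosen with earlier results known, these one-sided counts are a description only. DESeq2 also called no member higher and 20 lower. In 45 of 47 members the estimate was below 0, against 50.2% of all genes. In 25 members the 4 MR + iBRD9 libraries all lay below the 4 MR + vector libraries, 18 of them called, where 5.98% of all genes were so separated downward. No member was separated upward, against 3.56% of all genes.

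These falls were close to the limit of 4 libraries a group. Of the 20 calls, 7 stood whichever library was left out, namely Ifitm3, Trim30a, Parp14, Phf11b, Phf11d, Lgals3bp and Epsti1. Leaving out MR + vector library 1 left 7 calls, and leaving out library 2 or library 4 of that group left 11. For MR + iBRD9 libraries 1, 2, 3 and 4 the counts were 14, 12, 14 and 13. Leaving out MR + vector library 3 or any M library gave 19 to 22. Helz2 was lost on leaving out MR + vector library 1 (adjusted p = 0.10). The call of Zbp1 needed both MR + vector libraries 1 and 2 (highest adjusted p 0.06 without one of them), and that of Rtp4 needed MR + vector library 1 and MR + iBRD9 library 2 (0.056). The other 10 calls were lost on leaving out 3 to 11 libraries each, with the highest adjusted p at 0.18 for Xaf1. By the call rule of the study, an unadjusted p below 0.05 and a fold of at least 1.2, 9 members were lower and none higher, where 2.10% of all genes were lower and 1.83% higher. Only the cut-offs are those of the study, which tested with DESeq. Here they were put on the edgeR p-values.

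Markers of other cells moved in the same comparison, where 2.05% of all genes fell and 0.718% rose. Neutrophil markers summed to 97.8 to 117 CPM in MR + vector and 68.8 to 87.1 CPM in MR + iBRD9, and 4 of the 9 tested fell, with the defining marker Ly6g at or near 0 in every group. Erythroid and megakaryocyte markers summed to 105 to 121 and 87.1 to 98.5 CPM, and 1 of the 2 tested fell. Of 11 macrophage markers 3 fell. Of the 7 osteoclast markers tested 1 fell, Ctsk (-1.44 ± 0.15, adjusted p = 1e-07), and 1 rose, Mmp9 (0.23 ± 0.05, adjusted p = 0.002). The part of these shifts in the fall of the members was not tested.

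Without RANKL, iBRD9 lowered 13 members and raised none, with a median of -0.13 and a range of -0.43 to 0.46. Of all genes 3.73% fell and 3.08% rose, with a median of 0.002. Isg15 (-0.43 ± 0.08, adjusted p = 0.0017), Ifi44 (-0.43 ± 0.11, adjusted p = 0.015) and Phf11d (-0.40 ± 0.07, adjusted p = 0.00073) fell most. In 42 of 47 members the estimate was below 0, against 49.3% of all genes. At an unadjusted p below 0.05, 25 members were lower, against 10.3% of all genes, and 1, Ifitm2, was higher, against 10.1%. By the call rule of the study 9 members were lower and 1 higher, against 2.78% and 3.33% of all genes. In 11 members the M + iBRD9 libraries lay below all M + vector libraries, against 5.34% of all genes, and in none above them, against 4.75%. Replicate 2 of M + iBRD9 stood nearest to the vector libraries, with a median over members of -0.02 log2 units against the mean of M + vector, where the other 3 stood at -0.21 to -0.14. Without it 20 members were called lower, Usp18, Ddx58, Eif2ak2, Rsad2, Cmpk2, Parp14 and Lgals3bp being added. As this library was singled out for standing nearest to vector, the larger count without it follows in part from that choice. Of the 13 calls, 9 stood whichever library was left out. Bst2 and Rtp4 were lost on leaving out M + vector library 4 or M + iBRD9 libraries 1 or 3 (highest adjusted p 0.099 and 0.12). Trim30a was lost on leaving out M + vector library 4 or M + iBRD9 library 3 (highest adjusted p 0.11), and Ifi44 without M + vector library 3 (adjusted p = 0.055). Neutrophil markers summed to 113 to 122 CPM in M + vector and 108 to 143 CPM in M + iBRD9, where 1 of 9 rose and 1 fell. Of 11 macrophage markers 4 rose, namely Csf1r, Mertk, C1qa and C1qb, and none fell. Of the 7 osteoclast markers tested 1 fell, Ctsk (-1.18 ± 0.18, adjusted p = 5.5e-05), and 1 rose, Mmp9 (0.31 ± 0.05, adjusted p = 0.00021). The part of these shifts was not tested.

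The iBRD9 falls with and without RANKL come from separate libraries, but the spread was estimated over all 16 libraries in 1 fit. The falls shared 11 members, 55.0% of the 20 and 84.6% of the 13, namely Dhx58, Zbp1, Bst2, Ifitm3, Rtp4, Trim30a, Parp12, Ifi44, Phf11b, Phf11d and Helz2. The share of all genes called lower in both was not computed. With a list chosen with earlier results known, the overlap is a description only. The difference between the iBRD9 responses with and without RANKL was called for no member, where 1.08% of all genes had a lower and 1.00% a higher interaction term. At an unadjusted p below 0.05, 4 of 47 members had a lower term, a share near the 7.22% of all genes, and none a higher one, against 6.57%. By the call rule of the study 2 had a lower term and none a higher one, against 3.24% and 3.42% of all genes. The smallest adjusted p was that of Dtx3l (-0.29 ± 0.08, adjusted p = 0.061), and DESeq2 called 1 member, Dtx3l (adjusted p = 0.041). Leaving out M + vector library 4, M + iBRD9 library 4, MR + vector library 3 or MR + iBRD9 library 1 also brought Dtx3l below the threshold (adjusted p from 0.026 to 0.045).

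With RANKL and iBRD9 together, the mean of 40 of 47 members lay between those of M + vector and MR + vector. The share of all genes with such an order of means was not computed. Any gene whose RANKL rise exceeds a fall with iBRD9 takes this order by arithmetic. The MR + iBRD9 mean was the lowest of the 4 groups for Trim21, Trim25 and Sp140, and the highest for Trim34a. The 4 MR + iBRD9 libraries lay above the 4 M + vector libraries in 31 of 47 members, where 20.4% of all genes were separated upward and 20.9% downward. The 1 member separated downward was Trim21. Medians over members against the mean of M + vector were 0.41 to 0.50 log2 units in the MR + vector libraries and 0.21 to 0.28 in the MR + iBRD9 libraries.

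**Figure D3:**
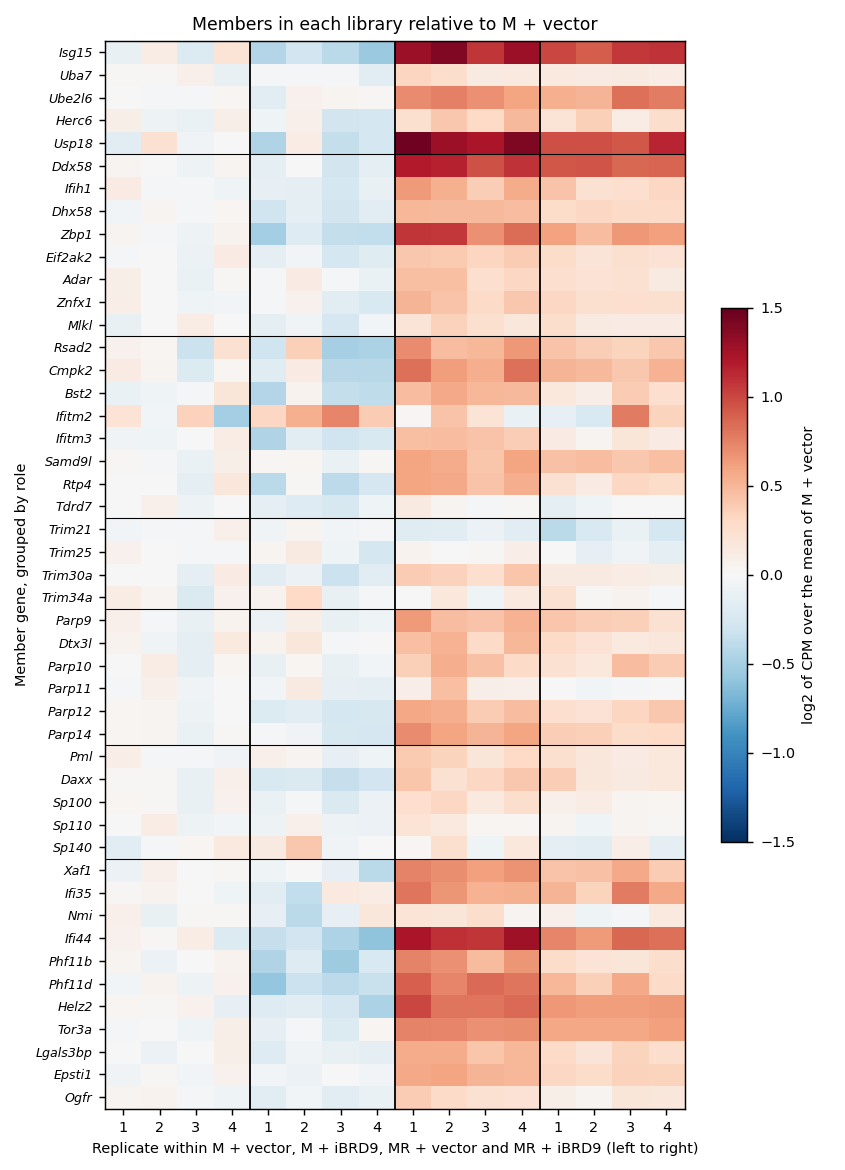
Log2 of the CPM of each member over its mean in M + vector, 1 row per member grouped by role and 1 column per library. The MR + vector columns are the reddest and the MR + iBRD9 columns are paler, with library medians of 0.41 to 0.50 and 0.21 to 0.28, and the Ifitm2 and Trim21 rows depart from the rest.

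**Figure D4:**
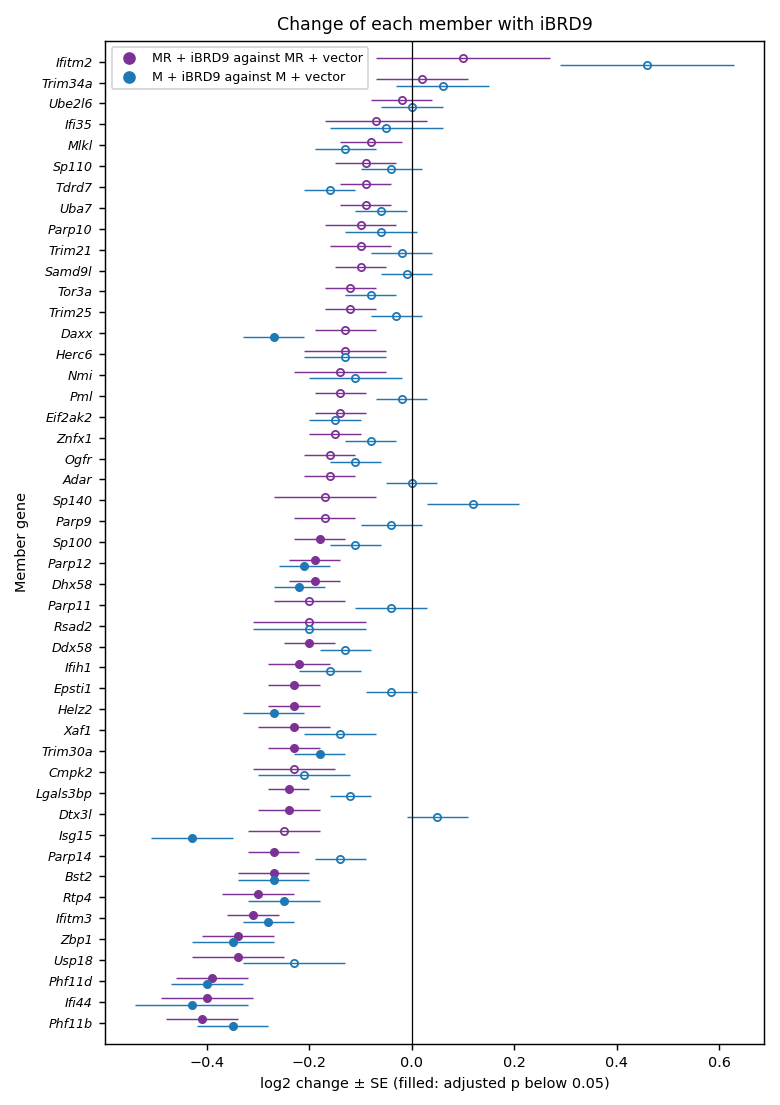
Log2 change ± SE of each of the 47 members with iBRD9, in RANKL-treated and in M-CSF-only cells, ordered by the former, with filled points for an adjusted p below 0.05. All 20 filled points with RANKL and all 13 without it lie left of 0, and Ifitm2 has the highest estimate without RANKL (0.46).

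ISG15 is a ubiquitin-like protein that Uba7, Ube2l6 and Herc6 attach to other proteins in turn, and that Usp18 removes. All 5 genes of this system rose with RANKL in both treatments. Isg15 (ENSMUSG00000035692, chromosome 4, GRCm39) stood at 24.9, 28.9, 23.3 and 30.8 CPM in replicates 1 to 4 of M + vector, and at 66.0, 70.0, 56.2 and 65.2 in MR + vector. Every RANKL library was therefore well above every library without it, a fold of 2.39. The iBRD9 libraries read 19.8, 22.0, 20.3 and 18.2 CPM without RANKL and 53.5, 50.3, 56.1 and 56.6 with it. The M + iBRD9 libraries all lay below M + vector. With RANKL the groups overlapped through MR + vector library 3, and the change of -0.25 ± 0.07 was not called (adjusted p = 0.064, and 0.011 to 0.27 over the alternatives run).

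Usp18 (ENSMUSG00000030107, chromosome 6) also dampens signalling at the interferon receptor. It stood at 15.9, 20.9, 17.2 and 17.8 CPM in M + vector and 49.0, 43.5, 41.8 and 47.3 in MR + vector. Its levels with iBRD9 were 13.1, 19.3, 13.9 and 14.9 CPM without RANKL and 35.0, 34.9, 34.2 and 39.3 with it. The RANKL groups did not overlap, a fall by 0.34 (SE 0.09, adjusted p = 0.022) that was lost on leaving out MR + vector libraries 1 or 4 or MR + iBRD9 libraries 1, 2 or 3 (highest adjusted p 0.10). Without RANKL the groups overlapped and the change was -0.23 ± 0.10 (adjusted p = 0.19).

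The 3 genes of the conjugating chain moved less. Uba7, the activating enzyme, stood at 87.1, 87.0, 90.6 and 79.8 CPM in M + vector and 108, 103, 94.5 and 95.4 in MR + vector (0.22 ± 0.05). After iBRD9 it stood at 85.1, 85.0, 84.8 and 76.5, and 94.9, 93.4, 94.1 and 93.1 with RANKL. Ube2l6, the conjugating enzyme, rose with RANKL from 84.9, 82.5, 83.4 and 86.2 to 138, 142, 136 and 127 CPM (0.69 ± 0.06). Under iBRD9 Ube2l6 overlapped with vector in both states, at 75.3, 88.2, 86.9 and 85.6 without RANKL and 122, 120, 149 and 143 with it, and its change with RANKL present was -0.02 ± 0.06 (adjusted p = 0.93). Herc6 stood at 30.8, 27.3, 26.9 and 30.8 CPM in M + vector and 34.0, 38.1, 35.4 and 40.6 in MR + vector (0.36 ± 0.08). Its iBRD9 libraries, at 27.7, 30.4, 23.8 and 24.1 without RANKL and 33.2, 36.9, 31.1 and 34.7 with it, overlapped with vector, and neither iBRD9 change was called (-0.13 ± 0.08 each, adjusted p of 0.39 and 0.53).

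The 8 members grouped around the sensing of foreign nucleic acid, with the RNA editor gene Adar and the necroptosis gene Mlkl among them, all rose with RANKL in both treatments, and 4 fell with iBRD9 in RANKL-treated cells. Ddx58 encodes RIG-I, which recognises the ends of viral RNA (ENSMUSG00000040296, chromosome 4). It stood at 115, 113, 106 and 115 CPM in M + vector and 256, 250, 218 and 237 in MR + vector, a fold of 2.14. Under iBRD9 the levels were 102, 113, 93.0 and 101 without RANKL and 214, 216, 204 and 205 with it. All MR + iBRD9 libraries lay below those of MR + vector, by 0.20 ± 0.05 in log2 units (adjusted p = 0.028), and the call was lost on leaving out MR + vector libraries 1, 2 or 4 or MR + iBRD9 libraries 3 or 4 (highest adjusted p 0.15).

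Ifih1 encodes MDA5, which recognises long double-stranded RNA. Its levels were 69.0, 61.7, 61.8 and 60.3 CPM in M + vector and 98.2, 91.4, 81.3 and 93.2 in MR + vector (0.53 ± 0.06). Under iBRD9 they were 58.0, 57.6, 52.4 and 58.6 without RANKL and 84.7, 74.2, 75.0 and 78.1 with it. The fall by 0.22 with RANKL (adjusted p = 0.029) had overlapping libraries and was lost on leaving out MR + vector libraries 1, 2 or 4 or MR + iBRD9 libraries 2, 3 or 4 (highest adjusted p 0.15). Without RANKL the libraries did not overlap, at -0.16 ± 0.06 (adjusted p = 0.12).

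Dhx58 encodes LGP2, which modulates both of these sensors. It varied little within groups, at 49.8, 52.4, 50.2 and 52.2 CPM in M + vector and 72.2, 71.4, 71.5 and 70.4 in MR + vector. With iBRD9 it read 41.5, 46.2, 42.2 and 45.3 without RANKL and 61.9, 63.4, 62.4 and 62.4 with it. Both iBRD9 groups were fully below their vector group, by 0.22 ± 0.05 without RANKL (adjusted p = 0.006) and 0.19 ± 0.05 with it (adjusted p = 0.026). The latter call was lost on leaving out any 1 of the 8 libraries compared (highest adjusted p 0.08).

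Zbp1, a sensor of Z-form nucleic acid, and Mlkl, which forms the membrane pores of necroptosis, belong to 1 cell death pathway and moved to different extents. Zbp1 stood at 29.6, 28.3, 27.2 and 29.9 CPM in M + vector and 60.3, 60.0, 46.3 and 51.2 in MR + vector (0.92 ± 0.08). Its levels with iBRD9 were 20.2, 25.2, 22.4 and 22.2 without RANKL and 43.8, 39.6, 45.1 and 43.9 with it. Neither iBRD9 group overlapped with its vector group, and the changes were -0.35 ± 0.08 (adjusted p = 0.007) and -0.34 ± 0.07 (adjusted p = 0.0071), the latter lost on leaving out MR + vector libraries 1 or 2 (highest adjusted p 0.06). Mlkl stood at 41.2, 44.6, 48.4 and 44.8 CPM in M + vector and 51.1, 56.8, 52.7 and 50.4 in MR + vector (0.24 ± 0.06). Its iBRD9 libraries, at 40.4, 42.9, 37.4 and 43.3 and at 53.6, 49.0, 48.8 and 48.5 with RANKL, overlapped with vector in both states.

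Eif2ak2 encodes PKR, a kinase that stops translation on double-stranded RNA, and Adar an enzyme that edits such RNA. Eif2ak2 stood at 116, 117, 111 and 128 CPM in M + vector and 156, 155, 147 and 154 in MR + vector (0.38 ± 0.05). After iBRD9 it stood at 107, 115, 98.0 and 104 without RANKL and 143, 135, 139 and 137 with it. The MR + iBRD9 libraries were all lower than those of MR + vector, but neither iBRD9 change was called (adjusted p of 0.054 without RANKL and 0.12 with it). DESeq2 called the change without RANKL, and a fit of only the compared groups called the change with it. Adar stood at 106, 99.6, 93.1 and 101 CPM in M + vector and 137, 137, 119 and 124 in MR + vector, a rise by 0.37 ± 0.05. Under iBRD9 it read 97.9, 109, 98.9 and 93.2 without RANKL, where the change was 0.00 ± 0.05, and 119, 116, 117 and 110 with it, at -0.16 ± 0.05 (adjusted p = 0.12). Znfx1, a helicase that senses viral RNA, rose with RANKL by 0.41 ± 0.05 and was not called under iBRD9 (adjusted p of 0.38 without RANKL and 0.15 with it).

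**Figure D5:**
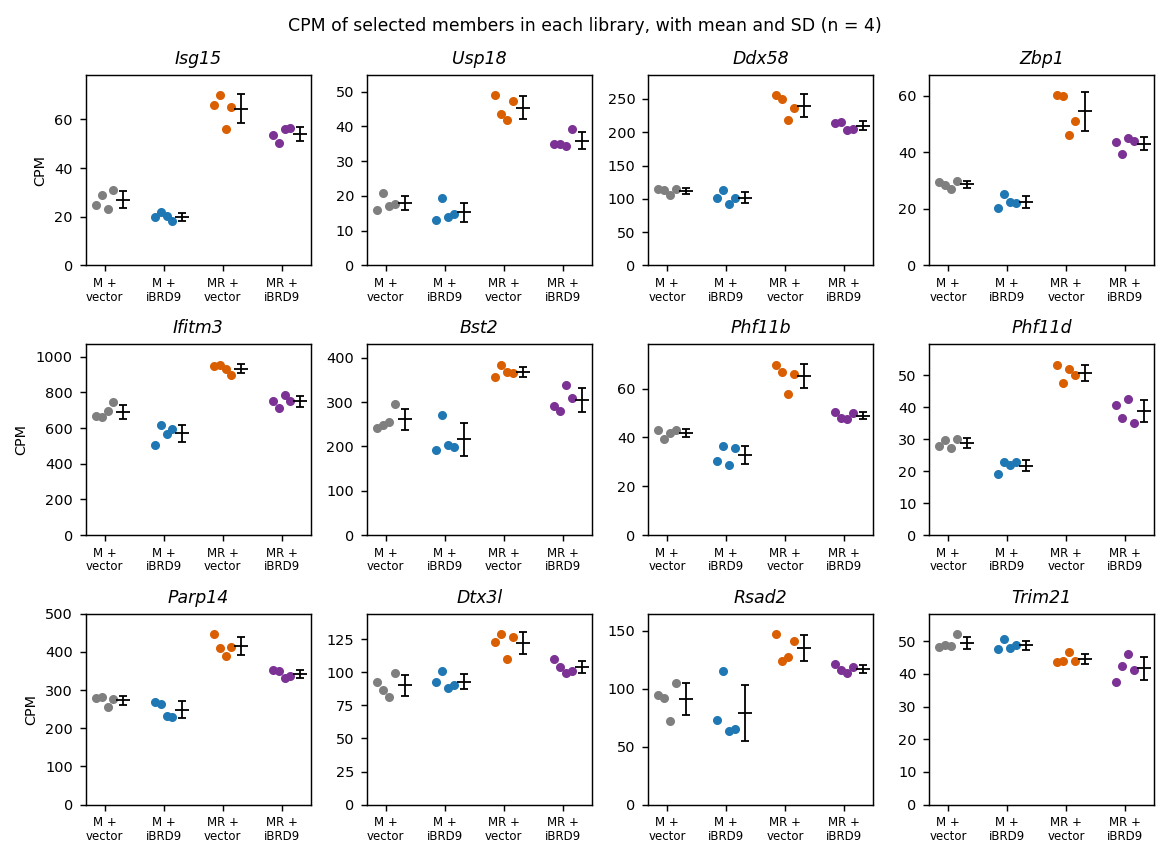
CPM of 12 members in each of the 16 libraries, 1 point per library, with the mean and SD of the 4 libraries beside each group and axes that start at 0. Isg15 reads 18.2 to 30.8 without RANKL and 50.3 to 70.0 with it, and the MR + iBRD9 points of Ifitm3 (711 to 786) lie below all MR + vector points (896 to 956).

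Among the antiviral effectors 6 of 8 rose with RANKL in both treatments and 3 of 8 fell with iBRD9, the same 3 with and without RANKL. Ifitm3 (ENSMUSG00000025492, chromosome 7) stood at 667, 660, 694 and 748 CPM in M + vector and 946, 956, 929 and 896 in MR + vector (0.43 ± 0.05). Under iBRD9 the levels were 506, 617, 564 and 592 without RANKL and 750, 711, 786 and 750 with it. Its iBRD9 libraries lay below all vector libraries in both states, by 0.28 ± 0.05 without RANKL (adjusted p = 0.00021) and 0.31 ± 0.05 with it (adjusted p = 6.3e-05), and both calls stood whichever library was left out.

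Bst2 stood at 242, 249, 256 and 296 CPM in M + vector and 357, 385, 368 and 365 in MR + vector (0.50 ± 0.07). The iBRD9 libraries read 191, 270, 203 and 199 without RANKL and 291, 279, 339 and 310 with it. Replicate 2 of M + iBRD9 lay among the vector libraries, while with RANKL the groups were separate. Bst2 fell by 0.27 in both states (SE 0.07 each, adjusted p of 0.02 without RANKL and 0.031 with it), and the call with RANKL was lost on leaving out any library of MR + vector or MR + iBRD9 libraries 1, 2 or 4 (highest adjusted p 0.13). DESeq2 called it in neither state. Rtp4, a chaperone of receptors that inhibits viruses, fell too, by 0.25 ± 0.07 without RANKL and 0.30 ± 0.07 with it (adjusted p of 0.025 and 0.01). Its call without RANKL was lost on leaving out M + vector library 4 or M + iBRD9 libraries 1 or 3 (highest adjusted p 0.12), as was that of Bst2 (up to 0.099), and its call with RANKL without MR + vector library 1 or MR + iBRD9 library 2 (up to 0.056).

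Rsad2, which encodes viperin, and Cmpk2, which encodes a nucleotide kinase that feeds the same reaction, lie head to head on chromosome 12 with 12.8 kb between their starts. Rsad2 stood at 94.4, 91.9, 71.9 and 105 CPM in M + vector and 147, 124, 127 and 141 in MR + vector (0.57 ± 0.11). With iBRD9 it read 73.1, 115, 63.7 and 64.8 without RANKL and 121, 116, 113 and 119 with it. Cmpk2 followed with 69.8, 65.9, 55.6 and 65.0 in M + vector, 113, 98.4, 93.3 and 113 in MR + vector, 56.1, 69.6, 47.8 and 47.8 in M + iBRD9 and 90.9, 89.2, 84.2 and 91.8 in MR + iBRD9. For both genes replicate 2 was the highest of M + iBRD9 and all MR + iBRD9 libraries lay below MR + vector. No iBRD9 change was called for Rsad2 (-0.20 ± 0.11 in each state, adjusted p of 0.34 without RANKL and 0.45 with it) or for Cmpk2 (adjusted p of 0.14 and 0.15). Without M + iBRD9 library 2, the changes without RANKL were called, at -0.44 for Rsad2 (adjusted p = 0.00056) and -0.35 for Cmpk2 (adjusted p = 0.0038). Leaving out the highest library of a group enlarges a fall by construction, so these calls are no support for one. Leaving out any other single library called neither gene.

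Ifitm2 lies 54.8 kb from Ifitm3 between their starts and did not move with it. It stood at 9.93, 8.37, 10.9 and 6.03 CPM in M + vector, 10.7, 12.4, 14.3 and 11.2 in M + iBRD9, 8.68, 11.6, 9.88 and 8.05 in MR + vector and 7.89, 7.35, 14.7 and 10.8 in MR + iBRD9. The groups overlapped in each comparison, and no change was called. Reads of the Ifitm genes may be split between similar copies. Samd9l, a restriction factor that limits translation in infected cells, rose with RANKL by 0.54 ± 0.05 and stood at -0.01 ± 0.05 and -0.10 ± 0.05 under iBRD9 without and with RANKL, neither called. Tdrd7 was called in no comparison (adjusted p of 0.05 to 0.74), though DESeq2 called it for RANKL with iBRD9 and for iBRD9 without RANKL.

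TRIM proteins are ubiquitin ligases, and the 4 in the module went different ways. Trim30a, a mouse regulator of inflammatory signalling, stood at 193, 192, 175 and 208 CPM in M + vector and 250, 244, 228 and 255 in MR + vector (0.34 ± 0.05). After iBRD9 it stood at 172, 180, 153 and 172 without RANKL and 210, 210, 207 and 204 with it. With RANKL the iBRD9 libraries were all lower, by 0.23 ± 0.05 (adjusted p = 0.0051), and without RANKL the fall was 0.18 ± 0.05 (adjusted p = 0.022) with overlapping libraries and lost on leaving out M + vector library 4 or M + iBRD9 library 3 (highest adjusted p 0.11). Trim21, the cytosolic antibody receptor, was the 1 member that fell with RANKL in both treatments. It stood at 48.2, 49.0, 48.6 and 52.2 CPM in M + vector and 43.7, 44.1, 46.7 and 43.8 in MR + vector, and at 47.7, 50.8, 47.9 and 49.0 and then 37.5, 42.3, 46.0 and 41.1 with iBRD9. The RANKL libraries lay below in each case, but the call with vector (-0.15 ± 0.06, adjusted p = 0.042) was lost on leaving out MR + vector libraries 1, 2 or 4, any library of M + vector or M + iBRD9 library 3 (highest adjusted p 0.14). With iBRD9 the fall by 0.23 (adjusted p = 0.0019) stood whichever library was left out. Trim25, a ligase that acts on RIG-I, and Trim34a were called in no comparison. Trim30a and Trim34a belong to a cluster of similar genes on chromosome 7, and reads may be split between copies.

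Parp9, Dtx3l and Parp14 encode proteins of ADP-ribosylation that work in 1 complex and lie together on chromosome 16. Parp9 and Dtx3l are transcribed in opposite directions, with 681 bases between their starts in overlapping gene bodies, and Parp14 starts 66.9 kb from Parp9. Since it is not known whether reads were counted by strand, some reads of Parp9 and Dtx3l may be mixed. Parp9 stood at 84.6, 79.2, 74.4 and 83.1 CPM in M + vector, 125, 111, 108 and 115 in MR + vector, 75.7, 86.3, 74.4 and 76.8 in M + iBRD9 and 107, 104, 103 and 94.0 in MR + iBRD9. It rose with RANKL by 0.52 ± 0.06, and with RANKL the iBRD9 libraries were all lower, a change of -0.17 ± 0.06 that was not called (adjusted p = 0.11).

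Dtx3l, the ubiquitin ligase that partners Parp9, stood at 93.0, 86.3, 81.4 and 99.5 CPM in M + vector and 123, 129, 110 and 127 in MR + vector (0.44 ± 0.06). Under iBRD9 the levels were 93.1, 101, 88.0 and 90.3 without RANKL and 110, 104, 99.2 and 101 with it. The iBRD9 change was 0.05 ± 0.06 without RANKL (adjusted p = 0.70) and -0.24 ± 0.06 with it (adjusted p = 0.016), the latter lost on leaving out MR + vector libraries 1, 2 or 4 or MR + iBRD9 libraries 3 or 4 (highest adjusted p 0.09). Its RANKL rise was 0.15 ± 0.06 with iBRD9 (adjusted p = 0.029), a call lost on leaving out M + iBRD9 library 3 or MR + iBRD9 libraries 1 or 2 (highest adjusted p 0.11).

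Parp14, a mono-ADP-ribosyltransferase, stood at 280, 282, 256 and 276 CPM in M + vector and 447, 411, 390 and 412 in MR + vector (0.60 ± 0.05). The iBRD9 libraries read 270, 264, 231 and 230 without RANKL and 352, 351, 332 and 337 with it. The RANKL-treated groups were separate, at -0.27 ± 0.05 (adjusted p = 0.0006), a call that stood whichever library was left out. Without RANKL the change was -0.14 ± 0.05 (adjusted p = 0.087). Parp12 fell in both states, by 0.21 ± 0.05 without RANKL (adjusted p = 0.0071) and 0.19 ± 0.05 with it (adjusted p = 0.022), the latter lost on leaving out MR + vector libraries 1 or 2 or MR + iBRD9 libraries 1 or 2 (highest adjusted p 0.11). Parp10 rose with RANKL by 0.41 ± 0.07 and was not called under iBRD9.

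Pml, Daxx and Sp100 encode proteins of PML nuclear bodies, and Sp110 and Sp140 are relatives of Sp100 in the same cluster on chromosome 1. The first 3 rose with RANKL in both treatments, Pml by 0.30 ± 0.05, Daxx by 0.34 ± 0.06 and Sp100 by 0.24 ± 0.05 with vector. Sp110 and Sp140, whose starts lie 1.56 kb apart, were called in no comparison. With iBRD9 Daxx, a histone chaperone, fell without RANKL (-0.27 ± 0.06, adjusted p = 0.0041) and was not called with it (-0.13 ± 0.06, adjusted p = 0.30). Sp100 fell with RANKL by 0.18 ± 0.05 (adjusted p = 0.027), a call lost on leaving out MR + vector libraries 1, 2 or 4 or MR + iBRD9 libraries 1, 3 or 4 (highest adjusted p 0.14), and stood at -0.11 ± 0.05 without it (adjusted p = 0.18). The interaction was called for neither (adjusted p of 0.49 for Daxx and 0.70 for Sp100).

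In the remaining 11 members, 10 rose with RANKL in both treatments and 7 fell with iBRD9 in RANKL-treated cells. Phf11b and Phf11d, near-identical neighbours 24.1 kb apart on chromosome 14 whose reads may be split, had among the largest falls. Phf11b stood at 43.0, 39.2, 41.7 and 43.1 CPM in M + vector, 30.5, 36.5, 28.8 and 35.5 in M + iBRD9, 69.9, 67.0, 58.0 and 66.1 in MR + vector and 50.4, 47.9, 47.5 and 50.0 in MR + iBRD9. Phf11d read 27.9, 29.8, 27.2 and 30.1, then 19.2, 23.0, 21.9 and 22.8, then 53.4, 47.6, 51.9 and 50.2, and 40.7, 36.8, 42.7 and 35.0 CPM in the same order of groups. For both genes no iBRD9 library overlapped with its vector group. The changes without RANKL were -0.35 ± 0.07 for Phf11b (adjusted p = 0.002) and -0.40 ± 0.07 for Phf11d (adjusted p = 0.00073), and all 4 iBRD9 calls stood whichever library was left out.

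Ifi44 had the lowest FPKM of the members and was among the most responsive. It stood at 9.46, 9.20, 9.82 and 7.87 CPM in M + vector and 21.1, 19.3, 19.1 and 21.9 in MR + vector, a fold of 2.23. Its levels with iBRD9 were 7.11, 7.41, 6.57 and 5.94 without RANKL and 15.1, 14.1, 16.4 and 16.1 with it, below the vector libraries in both states. The call without RANKL (adjusted p = 0.015) was lost on leaving out M + vector library 3 (adjusted p = 0.055). The call with RANKL (adjusted p = 0.013) was lost on leaving out MR + vector libraries 1 or 4 or MR + iBRD9 library 2 (highest adjusted p 0.072). Helz2, a helicase and co-activator of nuclear receptors, rose with RANKL from 98.1 ± 5.45 to 178 ± 11.8 CPM and fell with iBRD9 by 0.27 ± 0.06 without RANKL and 0.23 ± 0.05 with it, the latter call lost on leaving out MR + vector library 1 (adjusted p = 0.10).

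Lgals3bp and Epsti1 were called under iBRD9 with RANKL and not without it. Lgals3bp stood at 898, 897, 819 and 862 CPM in MR + vector and 743, 700, 771 and 734 in MR + iBRD9 (-0.24 ± 0.04, adjusted p = 0.0004), and at 608, 575, 613 and 652 in M + vector and 533, 591, 568 and 559 in M + iBRD9 (-0.12 ± 0.04, adjusted p = 0.072). Epsti1 stood at 108, 110, 104 and 103 CPM in MR + vector and 90.3, 87.9, 92.6 and 92.2 in MR + iBRD9 (-0.23 ± 0.05, adjusted p = 0.002), and its change without RANKL was -0.04 ± 0.05 (adjusted p = 0.65). The groups with RANKL were separate in both genes, and the interaction was not called for either (adjusted p of 0.37 and 0.15). Xaf1, a promoter of apoptosis, fell with iBRD9 in RANKL-treated cells by 0.23 ± 0.07 at an adjusted p of 0.049 that was lost on leaving out any library of M + vector, M + iBRD9 library 3, MR + vector libraries 1, 2 or 4 or MR + iBRD9 libraries 1, 2 or 4 (highest adjusted p 0.18). Tor3a, Ifi35, Nmi and Ogfr were not called under iBRD9 in either state, with estimates from -0.16 to -0.05.

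Members with and without the core moved in every comparison with calls. Of the 15 members with the core, 11 rose and 1 fell with RANKL and vector, 6 fell with iBRD9 and RANKL and 5 fell with iBRD9 alone. Of the 24 members whose promoters lacked it, 20 rose, 9 fell and 5 fell in the same comparisons. The 8 members with no promoter in the table were Usp18, Dhx58, Zbp1, Rtp4, Parp9, Parp10, Parp14 and Tor3a, of which 8 rose, 5 fell and 3 fell. Of all genes, 20.1% rose and 20.6% fell with RANKL and vector, 2.05% fell with iBRD9 and RANKL and 3.73% fell with iBRD9 alone. Median log2 changes in the 3 sets were 0.38, 0.42 and 0.56 with RANKL and vector. With iBRD9 and RANKL they were -0.20, -0.16 and -0.23. Both Isg15, with 3 cores in its promoter, and Ifi44, with none in its window, were among the strongest responders, and Trim21, with 2 cores, fell with RANKL.

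Genes upstream in the pathway moved in different directions. Of 32 genes listed as interferons, receptors, kinases, factors, inhibitors and sensors, 26 were tested. Of these 12 rose and 5 fell with RANKL and vector, where 20.1% of all genes rose and 20.6% fell, so the falls were near the background. With iBRD9 and RANKL 3 fell and none rose, namely Irf7, the factor that amplifies interferon responses (-0.44 ± 0.06), Stat2, a subunit of the complex that binds the response element (-0.29 ± 0.05), and Tlr7, an endosomal RNA sensor (-0.66 ± 0.05). Of all genes, 2.05% fell and 0.718% rose in that comparison. Without RANKL 4 fell, namely Stat2, Irf7, Tlr7 and Cgas, and 2 rose, namely Ifngr2 and Tlr9. There 3.73% of all genes fell and 3.08% rose. Irf9 stood at -0.01 ± 0.05 with iBRD9 and RANKL (adjusted p = 0.96) and the receptor genes Ifnar1 and Ifnar2 at 0.02 ± 0.04 and -0.14 ± 0.05 (adjusted p of 0.89 and 0.16). The interaction was called for Ifnar2 (-0.29 ± 0.07, adjusted p = 0.021) and Tlr7 (-0.39 ± 0.07, adjusted p = 0.0029). Of all genes, 1.08% had a lower and 1.00% a higher interaction term. Interferon genes Ifnb1, Ifna1, Ifna2, Ifna4 and Ifna5 were at 0 counts in all 16 libraries, which allows up to 3 counts in a single library, for counting error only. Brd9 was not called in any comparison, and since iBRD9 blocks the protein its mRNA is no check of the treatment.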

How the data were processed

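RNA of BMDMs was sequenced in 4 groups of 4 libraries, grouped by the treatment in the labels. The authors used Cutadapt for trimming, HISAT2 for alignment to GRCm39 and HTSeq for counting. The deposited table holds raw read counts. Beside them are FPKM values, for which the authors divided the counts by gene length and depth. Annotation release and strand setting are not given in the sources used here, so antisense genes and near-identical families (Ifitm, Trim30 and Trim34, Sp100, Phf11) are uncertain.

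After filterByExpr, 11559 genes were tested, two-sided, by edgeR 4.0.16 (quasi-likelihood test, R 4.3.3), with TMM scaling, a mean per group and 12 residual degrees of freedom. The coefficient of biological variation was 5.86%. The script was tested on simulated counts. Within groups, 24 library pairs differed by 2.81 to 11.3 chi-square per degree of freedom, so none agreed within counting error. Alternatives were other scaling, no filter, DESeq2 1.42.0, only the compared groups, a replicate block, the call rule of the study and leaving out each library. Members, gene lists and roles were chosen with earlier results of these data known. By rule any member could be named, 20 of them and the 3 largest called changes per comparison by library.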

Additional observations from a re-analysis of the deposited data

Results flagged for a closer look

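In 12 of 188 sets of 4 libraries (6.38%), 1 library stood apart from the other 3 by Dixon's criterion, where chance gives about 5%. They fell on 8 libraries, none of them in M + vector. In M + iBRD9, replicate 2 was above the others for Bst2 (270 CPM against 191 to 203) and Sp110 (68.5 against 60.9 to 61.6). Replicate 3 was below them for Ifih1 (52.4 against 57.6 to 58.6) and Samd9l (151 against 163 to 165), and replicate 4 for Uba7 (76.5 against 84.8 to 85.1). In MR + vector, replicate 2 was above the others for Parp11 (50.0 against 38.6 to 39.1) and replicate 3 for Trim21 (46.7 against 43.7 to 44.1). In MR + iBRD9, replicate 1 was above the others for Znfx1 (282 against 269 to 270) and Mlkl (53.6 against 48.5 to 49.0), replicate 3 for Sp140 (23.9 against 19.9 to 20.3), and replicate 4 for Usp18 (39.3 against 34.2 to 35.0) and Tor3a (131 against 128). Among these, the call of Parp11 under RANKL with vector was lost without replicate 2 of MR + vector.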

How the results depend on the processing

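No member or median changed its direction among called values in the 23 alternatives. With RANKL, 35 of 40 calls with vector and 32 of 39 with iBRD9 held in every alternative. Under iBRD9, 4 of 20 held with RANKL and 7 of 13 without it. Leaving out each library gave 38 to 39 members higher and 0 to 1 lower for RANKL with vector (median 0.468 to 0.493), 37 to 40 higher and 1 to 3 lower for RANKL with iBRD9 (median 0.381 to 0.443), 7 to 22 lower for iBRD9 with RANKL (median -0.209 to -0.164), 10 to 20 lower for iBRD9 without RANKL (median -0.153 to -0.107), and 0 to 1 lower for the interaction (median -0.076 to -0.005). The call rule of the study gave 9 lower for iBRD9 with RANKL, 0 lower for RANKL with vector and with iBRD9, 1 higher for iBRD9 without RANKL and 2 lower for the interaction. Of all genes, 2.10% were lower by that rule for iBRD9 with RANKL, 3.33% higher for iBRD9 without RANKL and 3.24% lower for the interaction, so the last 2 counts are near the background. With total counts as the only scaling or no filter, 0 were lower for RANKL with vector. For iBRD9 with RANKL, 27 were lower with only the compared groups and 14 with total counts as the only scaling. With only the compared groups, Isg15, Eif2ak2, Adar, Znfx1, Rsad2, Cmpk2 and Parp9 were added. DESeq2 added Eif2ak2, Tdrd7 and Lgals3bp for iBRD9 without RANKL. Members given above as not called are so in the edgeR fit of all 16 libraries. Without the filter 1 was higher for iBRD9 without RANKL and 1 had a lower interaction, and DESeq2 also called 1 lower interaction. The cause of these changes was not tested.

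Same-numbered libraries correlated between -0.0448 and 0.14 over 24 pairs, 2 of them above 0.1, so the numbers were not taken as pairs. With a replicate block, 23 members in place of 20 were lower for iBRD9 with RANKL (median -0.176), 1 was higher for iBRD9 without RANKL, 1 had a lower interaction, and the other counts stayed within 1.5 times.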
